A study of Mus musculus with 2 samples.

Results

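Brain endothelial cells, which line the blood vessels of the brain, were examined in dissociated cells of the dorsal telencephalon of WT mouse embryos at E16.5. They were chosen by their raw UMIs (unique molecular identifiers, each marking 1 captured mRNA molecule), as cells with at least 4 of the 6 endothelial genes Cldn5, Pecam1, Cdh5, Kdr, Flt1 and Tek above 0, at most 1 UMI of the pericyte gene Rgs5 and at most 2 of the fibroblast gene Col1a2. Of the 16348 cells that had 1500 to 60000 UMIs and under 10% mitochondrial UMIs, 175 met this rule. They comprised 99 of 8139 cells in WT replicate 1 (1.22%, 95% Wilson interval 1.0 to 1.48%) and 76 of 8209 in WT replicate 6 (0.926%, 0.740 to 1.16%), a mean of 1.07% ± 0.205 (SD, n = 2). The series was designed to compare controls with embryos in which Dot1l was deleted under Emx1-Cre, a Cre driver active in the dorsal telencephalon. Only 2 libraries of the control group entered, each with the genotype WT and no treatment, and the knockout embryos were not analysed here. The tissue was given as brain hemispheres and was dissociated with papain, and cells were captured with the 10x Genomics 3' v3.1 chemistry.

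Brain endothelial cells form the blood-brain barrier. Tight junctions close the gaps between neighbouring cells, transport by vesicles is kept low, and nutrients enter through dedicated carriers. Wnt ligands from neural cells, acting through beta-catenin in the endothelium, are known to induce and maintain these properties, while VEGF, Notch and BMP signals govern sprouting, arterial and venous identity and vessel stability. Pericytes and smooth muscle cells, together called mural cells, share a basement membrane with the endothelium.

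The libraries held 74930397 and 68964234 UMIs over 14136 and 13046 called cells. Summed over endothelial cells, 1364940 UMIs were available in WT replicate 1 and 1190468 in WT replicate 6. Endothelial cells were deeper than the remaining passing cells, with medians of 10962 and 12268 UMIs against 6883 and 6626. Among the 6 endothelial genes of the rule, all 6 were detected in 68 and 62 members, 5 in 15 and 7, and 4 in 16 and 7. Members just inside the threshold, with 4 genes, had a median of 11 and 16 summed UMIs of these genes, and the 24 and 16 cells just outside it, with 3 genes, had 6 and 6.5. A further 4 and 1 cells were left out for Rgs5 and 1 in WT replicate 1 for Col1a2. No cell barcode shared by the libraries belonged to a member, out of 59 shared in all. No doublets were removed, as the rule asks, and 34.3% and 43.4% of members were among the cells with the highest doublet scores, against 11.02% and 10.1% of the remaining cells. Leaving these out lowered the share of endothelial cells to 0.743%.

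To describe the endothelial transcriptome, UMIs were summed per library and class and given as CPM, the UMIs of a gene relative to all UMIs of the class, scaled to the same total. The endothelial sums were compared with those of all other passing cells by edgeR's quasi-likelihood test, with 2 sums per class. Genes with an adjusted p under 0.05 are called higher or lower. The 8 genes of the rule chose the cells and were not tested. As a description, Cldn5, the main claudin of brain endothelial tight junctions, reached 3569 and 3830.4 CPM in the endothelial sums of WT replicates 1 and 6 and 6.41 and 6.04 CPM in the other cells. Kdr, which encodes the VEGF receptor 2, reached 728 and 787 CPM against 2.54 and 1.81. Of 18195 genes tested, 7827 (43%) were called, 3777 higher (20.8%) and 4050 lower (22.3%) in endothelial cells, with a median log2 difference of -0.17. An unadjusted p under 0.05 was reached by 9160 genes (50.3%), and 1505 genes (8.27%) were called and at least 4-fold higher. Among the 7630 genes with a mean of at least 20 CPM, 31.8% were higher and 28.7% lower. Against this background all 20 pan-endothelial genes outside the rule were higher, with a median log2 difference of 6.89 and a range of 3.28 to 9.26. The transcription factor gene Erg was present at 207 and 206 CPM against 2.85 and 2.37 (log2 difference 6.35, SE 0.13, adjusted p = 2.76e-08). Sox17, a transcription factor gene of arterial endothelium, had 137 and 158 CPM against 0.36 and 0.425. Both endothelial sums of Erg and Sox17 lay above both sums of the other cells. P-values are from edgeR throughout, and the 2 libraries limit them to the spread between these samples.

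**Figure D1:**
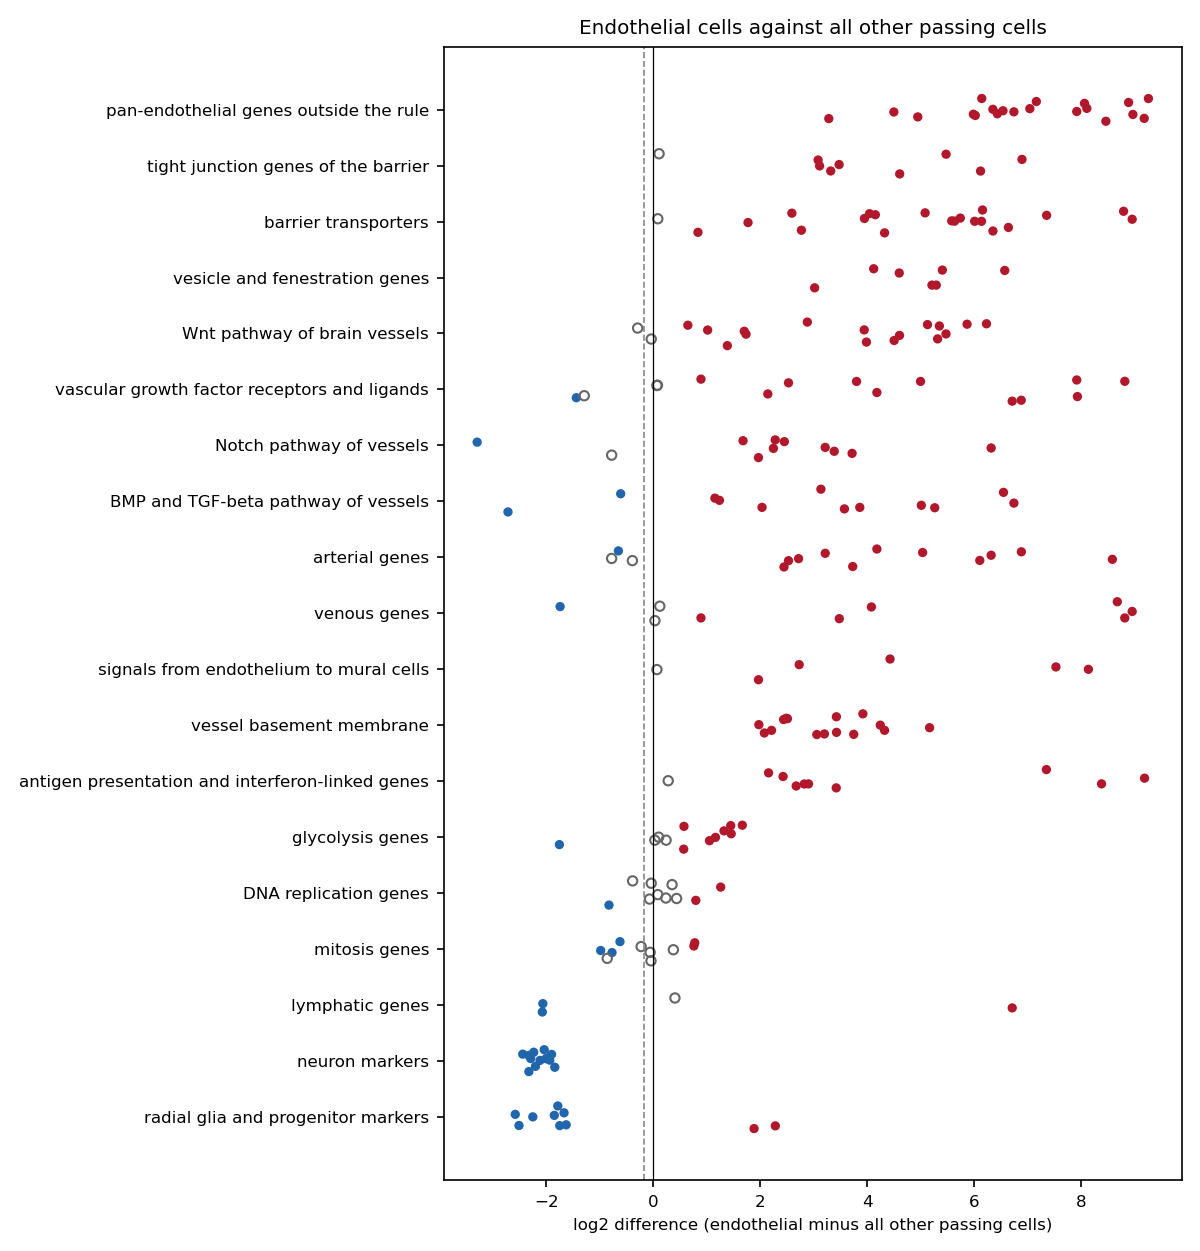
Log2 difference of each tested gene between endothelial cells and all other passing cells (x axis, edgeR), grouped by gene list (y axis, points shifted vertically for visibility). Filled red points were called higher, filled blue points lower and open points were not called at an adjusted p of 0.05. The dashed line marks the median of all tested genes (-0.17), and genes with no endothelial UMI are not drawn. All 20 pan-endothelial genes and 15 basement membrane genes lie to the right, while the 12 neuron markers lie together between -2.44 and -1.84.

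Markers of the neighbouring vascular and immune cells were close to absent. The member rule had left out 4 and 1 cells for Rgs5 and 1 for Col1a2. The low mural and fibroblast levels therefore follow in part from how members were chosen, whereas no microglia gene was in the rule. The 10 mural markers summed to 9.52 and 6.72 CPM in endothelial cells against 5802 and 7178 CPM in mural cells, with no more than 2 UMIs in any member. Only 4 of them, Higd1b, Acta2, Tagln and Ndufa4l2, lie outside the genes that chose the mural cells. The mural sum was therefore raised by that choice. These 4 were called lower in endothelial than in mural cells. Kcnj8 and Acta2, markers of pericytes and of smooth muscle, had no UMI in either endothelial sum. The 8 microglia markers summed to 14.7 and 10.1 CPM, and C1qb had no UMI. Among the 7 fibroblast markers, which summed to 60.8 and 62.2 CPM, Col1a1, Lum and Col6a1 had none. Foxc1, a forkhead factor gene also expressed by vessels, was the 1 fibroblast marker that was higher in endothelial cells, at 52.7 and 53.8 CPM against 7.02 and 6.73 (log2 difference 2.999). All 10 mural and all 8 microglia markers were lower. With genes without an endothelial UMI set to the bound that 3 counts allow, the median log2 differences were -4.22 for mural, -1.88 for fibroblast and -4.12 for microglia markers. Intervals cover counting error only, and bounds cover only that of the class without a UMI.

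Neuron markers were detected in the endothelial sums. The 12 neuron markers summed to 1773 and 1563 CPM in endothelial cells, 7508 and 7714 CPM in the other cells and 2035 and 2478 CPM in microglia-gated cells, which should lack them. All 12 were lower, within a narrow range of log2 differences from -2.44 (Neurod6) to -1.84 (Gad1). Per member, the median share of UMIs from these markers was 0.0658% and 0.0434%, and 1 member exceeded 1%. Erythroid markers summed to 3854 and 2014 CPM against 14152 and 20793 in the other cells, and 1 cell per library held 69.2% and 49.7% of the endothelial erythroid UMIs. Leaving out the 6 members above 1% of either marker set, an alternative added after seeing the data, left the differences of Top2a (-0.58) and Pdgfra (-0.996) near their values but without a call, and both also lost their calls in alternatives that kept these members. The part of this RNA in the differences given below was not tested.

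Genes of the barrier were next considered, beginning with the junctions. Of 9 tight junction genes outside the rule, 8 were higher and none lower, with a median log2 difference of 3.48. Ocln, encoding the junction protein occludin, measured 82.1 and 94.1 CPM in endothelial cells and 0.924 and 0.588 CPM in other cells (log2 difference 6.89, SE 0.21, adjusted p = 1.14e-07). Tjp1, encoding the scaffold ZO-1 that many epithelial and neural cells also use, measured 761 and 751 CPM against 80.1 and 76.5 (3.32, SE 0.12, adjusted p = 2.09e-07). Lsr, encoding angulin-1 of contacts where 3 cells meet, had a log2 difference of 6.12. The exception was Cldn12, which had 5 and 6 UMIs and was not called (0.11, adjusted p = 0.864).

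Transporter genes were higher almost throughout. Of 21 tested, 20 were higher and none lower, with a median log2 difference of 5.58. Slc2a1, encoding the glucose carrier GLUT1, measured 675 and 837 CPM in endothelial cells and 10.4 and 11.5 CPM in other cells (log2 difference 6.16, SE 0.16, adjusted p = 5.24e-08). Mfsd2a, encoding a lipid carrier that also restrains vesicle transport, measured 239 and 269 CPM against 5.81 and 4.72 (5.63, SE 0.14, adjusted p = 3.73e-08). The efflux pump gene Abcb1a, encoding P-glycoprotein, stood at 173 and 196 CPM against 0.345 and 0.506 (8.79, SE 0.17, adjusted p = 2.76e-08). Both endothelial sums lay far above both sums of other cells in each of these genes.

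Amino acid carriers were also prominent. Slc7a5 and Slc3a2, whose products form the large neutral amino acid exchanger, had log2 differences of 6.35 and 3.95. Slc38a5, a glutamine transporter gene, measured 425 and 462 CPM against 1.02 and 0.817 (8.95, SE 0.16, adjusted p = 2.76e-08). Iron handling was represented by Tfrc, the transferrin receptor gene, with a log2 difference of 4.04, and by Slc40a1, the ferroportin gene, with 6.14. At the low end, the lactate carrier gene Slc16a1 was present at 13.2 and 32.8 CPM against 6.33 and 7.22 (1.77, SE 0.35, adjusted p = 0.00365). Slco1a4, an organic anion transporter gene of the mature barrier, had 0 and 1 UMIs and was not called.

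Vesicle genes were higher as well, all 7 of them, with a median of 5.21. Cav1, encoding the caveolar coat protein caveolin-1, measured 264 and 302 CPM against 3.48 and 2.65 (log2 difference 6.57, SE 0.16, adjusted p = 3.73e-08). Plvap, encoding the diaphragm protein of fenestrated and immature vessels, had 19 and 28 UMIs, or 13.9 and 23.5 CPM, against 0.768 and 0.80 (4.60, SE 0.37, adjusted p = 2.07e-05). These few UMIs came from 15 and 12 members, and 3 members, all in WT replicate 6, had 3 or more, with 10 in the highest. Of the 27 members with Plvap, 26 also had Slc2a1.

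Detection per cell gave a picture less dependent on the most RNA-rich members. After thinning to 2000 UMIs per cell, which left out 1 member, Slc2a1 was detected in 64.9% of endothelial cells, 2.12% of other cells and 2.96% of microglia-gated cells (means of 2 libraries). Mfsd2a was detected in 34.2% of endothelial and 0.980% of other cells, and Plvap in 4.67% and 0.134%. Neither was seen in 171 microglia-gated cells, which allows a share of up to 1.75% of cells with a UMI at this depth and sets no limit on cells expressing the genes. Without thinning, 91.3% of endothelial cells had Slc2a1, against 15.7% of microglia-gated cells, whose median depths were 8748 and 7082 UMIs, and 67.9% and 15.5% had Mfsd2a and Plvap.

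**Figure D2:**
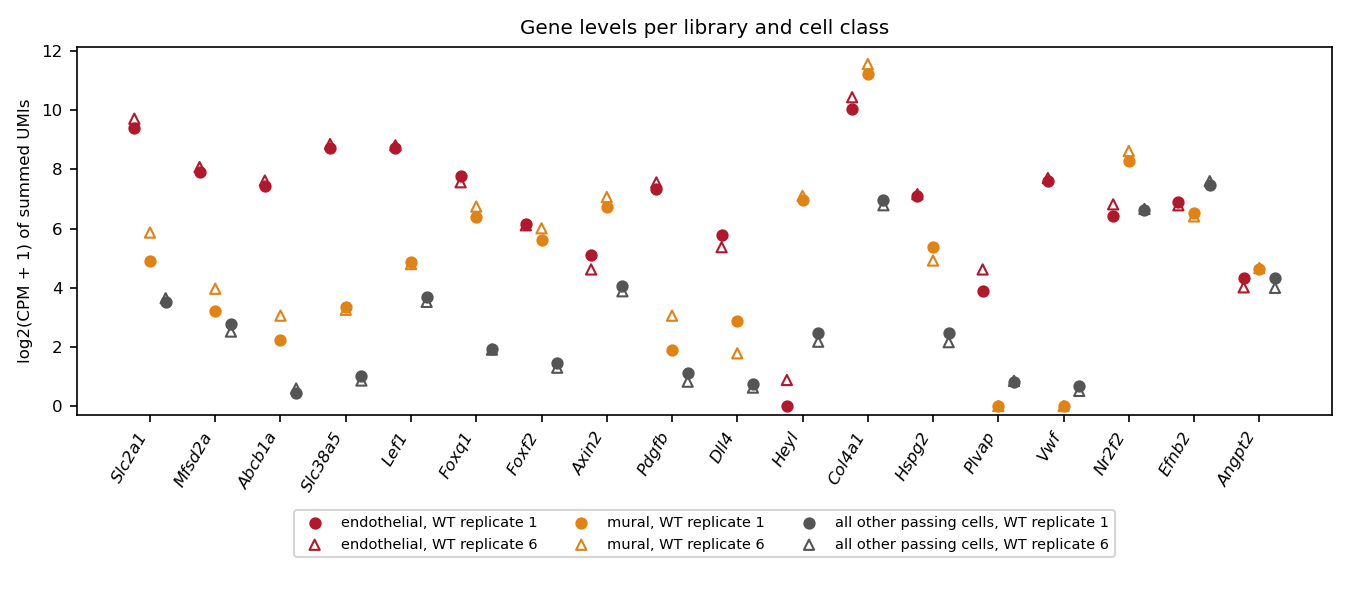
Levels of 18 genes as log2(CPM + 1) of summed UMIs (y axis) in endothelial cells, mural cells and all other passing cells. Filled circles stand for WT replicate 1 and open triangles for WT replicate 6, with no error bars since each point is 1 sum. Slc2a1, Mfsd2a, Abcb1a and Slc38a5 separate endothelial cells from both other classes, Heyl and Axin2 are highest in mural cells, and Angpt2 lies close together in all 3 classes.

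Wnt pathway genes of brain vessels were tested as receptors, effectors and targets. Of 18, 16 were higher and none lower, with a median log2 difference of 3.97. Among receptors, Fzd4 had a log2 difference of 5.13 and Fzd6 of 5.87, whereas the co-receptor gene Lrp6 measured 92.3 and 85.7 CPM against 96.1 and 92.9 and was not called (-0.04, adjusted p = 0.806). Adgra2, encoding the adhesion receptor GPR124 that endothelial cells need for Wnt7 signals, had 48.4 and 51.2 CPM against 3.48 and 3.19 (3.94). Its partner gene Reck was present at 19.0 and 14.3 CPM against 21.1 and 21.4 without a call.

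The nuclear effector gene Lef1 was high, at 420 and 448 CPM in endothelial cells against 11.98 and 10.5 (log2 difference 5.32, SE 0.13, adjusted p = 3.52e-08). The target Apcdd1, encoding an inhibitor of the pathway, measured 481 and 522 CPM against 12.9 and 12.5 (5.35). Foxf2 and Foxq1, forkhead factor genes of brain vessels, had log2 differences of 5.47 and 6.23. Axin2, the target most often used as a reporter of the pathway, was near the low end of the list, with 33.7 and 23.5 CPM against 15.8 and 13.7 (1.02, SE 0.21, adjusted p = 0.00476). The Axin2 call was lost without the endothelial sum of WT replicate 1 (0.62) and with the stricter cell filter (0.72). Lef1 was detected in 46.5% of endothelial cells at 2000 UMIs, in 1.48% of other cells and in 0 of 171 microglia-gated cells.

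Among vascular growth factor genes, 11 of 15 tested were higher and 1 was lower. Receptor genes led, with Aplnr, the apelin receptor gene, at 165 and 159 CPM against 0.564 and 0.163 (log2 difference 8.82, SE 0.30, adjusted p = 1.88e-07). Its ligand gene Apln, known from sprouting tip cells, measured 125 and 91.6 CPM against 0.329 and 0.588 (7.93). Nrp1, a VEGF co-receptor gene that neurons also express, was present at 430 and 295 CPM against 345 and 366 in other cells and 412 and 368 in microglia-gated cells, so the groups overlapped and no call was made (0.08, adjusted p = 0.755). The Nrp1 difference depended on the library, being 0.31 without WT replicate 6 and -0.32 without WT replicate 1, each with a call. Angpt2, the ligand gene of vessel remodelling, had 19.0 and 15.1 CPM against 19.0 and 14.9 (0.07, adjusted p = 0.852). Esm1, a tip cell gene, had 0 and 2 UMIs and too few counts for a test. Plxna2, a semaphorin receptor gene, was lower (-1.44), at 215 and 163 CPM in endothelial cells and 164 and 143 in microglia-gated cells.

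Notch and BMP genes were mostly higher. Of 11 Notch pathway genes, 9 were higher and 1 lower, with a median of 2.28. The ligand gene Dll4 measured 53.5 and 40.3 CPM against 0.674 and 0.539 (log2 difference 6.32, SE 0.27, adjusted p = 6.78e-07), and the receptor gene Notch4, found mainly in endothelium, had a log2 difference of 3.72. Heyl, a Notch target gene of mural cells, was lower with 0 and 1 UMIs. This call was lost with DESeq2 and in further alternatives, among them those without the highest doublet scores (-2.08) and with the stricter cell filter (-2.55). Of 12 BMP and TGF-beta genes, 10 were higher. The BMP9 receptor genes Acvrl1 (6.55) and Eng (6.74) were far above the other cells, and the BMP target gene Id1 had 338 and 618 CPM against 12.7 and 12.9 (5.26, SE 0.27, adjusted p = 1.64e-06). Tgfbr1, a receptor gene used by most cell types, was lower, at 86.5 and 73.9 CPM against 126 and 128 (-0.61), and so was the ligand gene Bmp6 with 1 and 7 UMIs.

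Ligand genes that act on mural cells included Pdgfb, which recruits pericytes, at 160 and 187 CPM against 1.16 and 0.768 (log2 difference 7.53, SE 0.18, adjusted p = 3.71e-08). Its receptor gene Pdgfrb had 1 UMI in each endothelial sum. Edn1, encoding endothelin-1, had a log2 difference of 8.14, and 5 of the 6 genes of this list were higher, Angpt2 being the exception. All 15 basement membrane genes were higher, from 1.98 to 5.17, with Col4a1, the collagen IV gene, at 1059 and 1385 CPM against 125 and 109 (3.43). Among antigen presentation and interferon-linked genes, 9 of 10 were higher, with Ly6c1 at 84.3 and 139 CPM against 0.235 and 0.147 (9.19) and the exception Ifitm2 at 73.3 and 73.1 CPM against 56.9 and 67.5. Of 10 immediate early and stress genes, 6 were higher and 0 lower, with a median log2 difference of 1.33, while 20.8% of all genes were higher. Fos was among the 4 not called (0.57, adjusted p = 0.549). The Hspa1a call was lost without the highest doublet scores (0.91). Against mural cells, 2 of these 10 genes were higher and 8 not called. The part of cell dissociation in these levels was not tested. Of 12 glycolysis genes, 8 were higher and 1 lower with a median of 0.81, among them Ldha, encoding lactate dehydrogenase A, with 1.45. Without the endothelial sum of WT replicate 1, the higher calls of Pfkp (0.046) and Eno1 (0.20) and the lower call of Hk2 (-1.75) were lost.

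Outside all lists, the 10 highest differences were those of AU021092, Clec1b, Ctla2a, Dipk2b, Depp1, Srarp, Tmem252, Adgrl4, Rassf9 and Myct1, from 8.94 to 9.57. Adgrl4, an adhesion receptor gene of angiogenic endothelium, had 896 and 628 UMIs (656 and 528 CPM) against 1.17 and 1.18 CPM. Ctla2a measured 488 and 671 CPM against 0.893 and 0.948. Clec1b had 2 and 1 UMIs in the other cells, so its fitted difference depends on the prior count. The 6 lowest among genes with at least 20 endothelial UMIs were Stmn4, Rab3a, Rasgef1b, Cntn5, Zfhx4 and Syt4, from -2.81 to -2.57, below the range of the neuron markers above.

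Many endothelial genes are known targets of ETS transcription factors, of which Erg, Fli1 and Ets1 were among the genes higher here. Promoters were taken from RefSeq (GRCm38.p6, the patched form of the mm10 build named in the submitters' processing notes). The 250 bases before each start were searched on both strands for AGGAAG, 1 extended form of the ETS motif. Other forms were not searched, so a promoter without a match may hold them. Of the 26 rule and pan-endothelial genes, 12 had a promoter in the reference table, with 17 promoters in all, and 8 of these (47.1%) held the letters, against 29.5% of all 32841 promoters. The share was 37.5% of 24 promoters for the transporters, and 4 of 16 promoters of the Wnt list held the letters. The sequences of Cldn5, Tie1 and Egfl7 are shown, with the gene strand read from 5' to 3' and the match in capitals, because these genes of the junction, the angiopoietin receptor family and the vessel lumen were each among the clearest endothelial genes. Egfl7 has 3 promoters in the table, with 3, 1 and 0 matches, of which the one with 1 match is shown.
Cldn5 (chr16:18776597-18776846, plus strand), no match: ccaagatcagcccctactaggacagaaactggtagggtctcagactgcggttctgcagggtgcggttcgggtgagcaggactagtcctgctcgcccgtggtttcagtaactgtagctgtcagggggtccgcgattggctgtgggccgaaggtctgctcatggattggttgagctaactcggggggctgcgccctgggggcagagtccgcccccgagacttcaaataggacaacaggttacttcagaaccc
Tie1 (chr4:118489850-118490099, minus strand), 1 match: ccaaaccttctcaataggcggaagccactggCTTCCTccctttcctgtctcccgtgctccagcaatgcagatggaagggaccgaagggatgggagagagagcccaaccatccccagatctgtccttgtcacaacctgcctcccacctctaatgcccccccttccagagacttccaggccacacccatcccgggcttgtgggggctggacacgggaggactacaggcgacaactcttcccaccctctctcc
Egfl7 (chr2:26583615-26583864, plus strand), 1 match: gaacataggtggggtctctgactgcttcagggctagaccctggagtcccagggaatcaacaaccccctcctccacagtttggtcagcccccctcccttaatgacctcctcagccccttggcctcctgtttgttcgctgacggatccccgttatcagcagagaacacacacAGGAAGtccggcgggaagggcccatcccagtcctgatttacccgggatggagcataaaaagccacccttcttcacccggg
Tie1 stood at 119 and 134 CPM in endothelial cells against 0.642 and 0.425 (log2 difference 7.92), and Egfl7 at 652 and 693 CPM against 4.70 and 4.98 (7.16). Cldn5, without these letters in its window, was higher in the same cells by the rule that chose them. A match is a description of the letters and not a site of binding. CTTTGAT, 1 form of the TCF/LEF motif, was present in 1 of 16 promoters (10 of 18 genes matched) of the Wnt list, that of Tnfrsf19, against 3.21% of all promoters.

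Next, variation among the 175 endothelial cells was described, without a test since cells of 1 library are not replicates. Most barrier genes were spread widely. Slc2a1 had a UMI in 87 of 99 and 72 of 76 cells, and its 18 highest cells held 31.7% of its UMIs, close to the 24.9% of all endothelial UMIs held by the 18 deepest cells. For Lef1 this share was 38.6%, for Mfsd2a 39.2% and for Pdgfb 32.4%. Over the 20 transporters with at least 20 UMIs its median was 35.9%. Higher shares were those of Slc16a1 (77.2%), Slc19a3 (95.2%), the junction gene Marveld2 (79.3%) and the Wnt gene Reck (72.1%). These had only 57, 21, 29 and 43 UMIs. With so few UMIs the 18 highest cells hold a large share however the UMIs are spread. Slc19a3, for example, had its 21 UMIs in 19 cells, with no more than 2 in any. The 11 arterial genes with at least 20 UMIs ranged from 43.7% for Sox17, which was found in 62.9% of cells, to 100% with a median of 75.0%. Several of them had few UMIs, such as Bmx (24) and Sema3g (48), so this median cannot be set against that of the transporters. The share was 55.4% for Dll4, 57.0% for Efnb2, 74.8% for Gja4, the connexin 37 gene, and 85.1% for Cxcl12, a chemokine gene of arteries. Their UMIs numbered 121, 291, 317 and 727, against 646 for Mfsd2a. Gja5, the connexin 40 gene, had 16 UMIs in 2 cells of WT replicate 1 and none in WT replicate 6. Mgp had 99 and 6 UMIs, of which 1 cell held 85.7% of the total. The calls of Gja5 (log2 difference 3.73) and Mgp (2.45) against other cells therefore rest on 2 cells and on 1 cell of WT replicate 1, and both values were below 0 without its endothelial sum (-7.34 and -0.66), neither with a call.

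**Figure D3:**
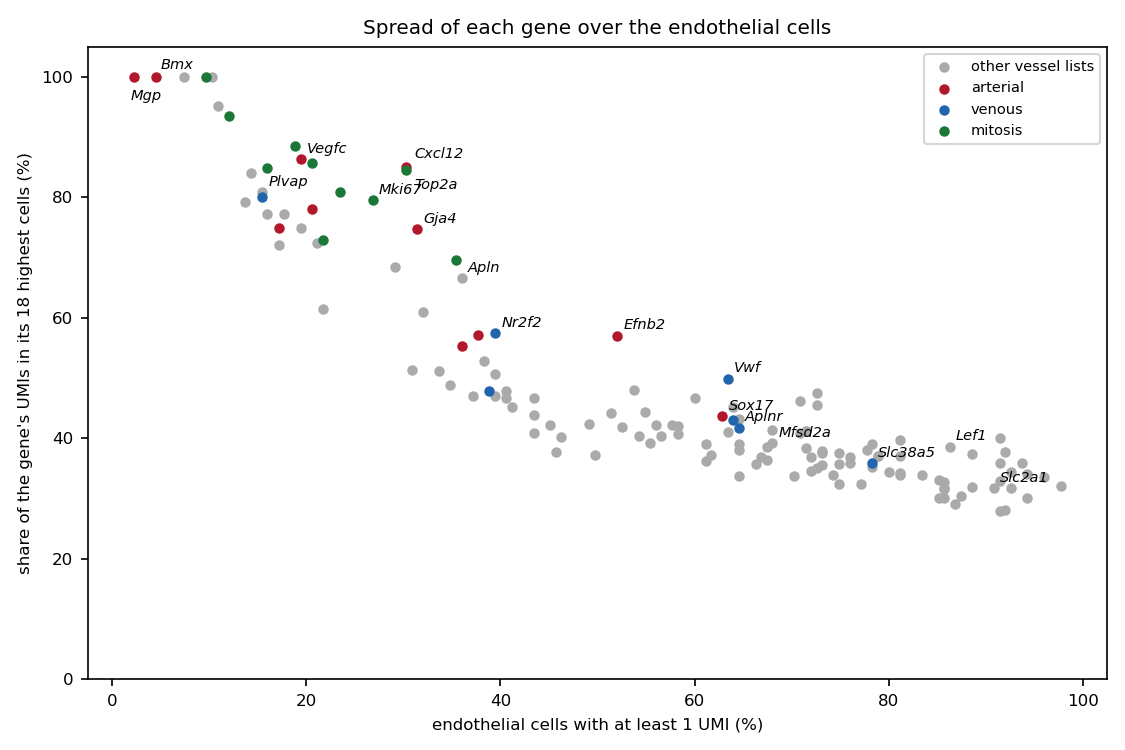
Spread of vessel and mitosis genes with at least 20 endothelial UMIs over the 175 endothelial cells. The x axis gives the share of cells with at least 1 UMI and the y axis the share of the gene's UMIs found in its 18 highest cells, both in percent. Slc2a1 (31.7%), Lef1 (38.6%) and the arterial gene Sox17 (43.7%) lie low, while the arterial genes Gja4 (74.8%) and Cxcl12 (85.1%) and the mitosis genes Mki67 (79.6%) and Top2a (84.6%) lie high. Unlabelled points from other lists also reach high values, among them Slc16a1 (77.2%) and Slc19a3 (95.2%). Genes with few UMIs have high shares however their UMIs are spread, so shares compare only between genes of similar counts.

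Of the 14 arterial genes, 11 were higher in the endothelial sum and 1, Efnb2, was lower. Efnb2, encoding the arterial ligand ephrin B2, which cortical neurons express as well, measured 118 and 109 CPM in endothelial cells, 176 and 193 in other cells and 41.0 and 47.0 in microglia-gated cells (log2 difference -0.65, SE 0.11, adjusted p = 0.00204). Of 9 venous genes tested, 6 were higher, with the apelin receptor gene, Slc38a5 and Vwf, the von Willebrand factor gene (195 and 207 CPM against 0.58 and 0.425, 8.68), in front. Nr2f2, encoding the venous factor COUP-TFII that interneurons also carry, had 85.0 and 112 CPM against 97.6 and 100.1 and was not called (0.03, adjusted p = 0.863). Its value was -0.38 with a call (adjusted p = 0.0431) when cells with the highest doublet scores were left out. Vcam1 was lower with 5 and 4 UMIs.

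Counting cells, a UMI of Gja4, Gja5 or Bmx was found in 29 and 28 members and one of Nr2f2 or Aplnr in 69 and 54. Both kinds were seen together in 20 and 18 cells and neither in 21 and 12. Cells with at least 20 UMIs of arterial genes, a threshold set after the values were seen, numbered 13 and 17. Their depth was near that of the remaining members, with medians of 11634 and 12884 against 10599.5 and 12169 UMIs. In these cells the venous genes Nr2f2 and Aplnr were low. Nr2f2 stood at 4.56 and 24.5 CPM against 100.4 and 139 in the remaining members, and Aplnr at 36.5 and 70.0 CPM against 189 and 187. Mfsd2a stood at 411 and 532 CPM against 206 and 186. Slco1c1, a thyroid hormone carrier gene, had 680.0 and 571 CPM against 351 and 232, and Slc2a1 812 and 1338 CPM against 648 and 679.6. Slc38a5, a carrier gene of the venous list, had 209.9 and 452 CPM in the arterial-gene-rich cells against 466 and 465. Vwf, listed as venous, stood at 338 and 392 CPM in them against 168 and 149, and Id1 at 671 and 1121 CPM against 275 and 459.7. Lef1 and Foxq1 had no common direction between the libraries, with Lef1 at 347 and 469 CPM against 434 and 441.

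Tip cell genes followed a similar pattern of concentration. Apln was detected in 40 and 23 members, its 18 highest cells held 66.7% of its UMIs, and Apln, Esm1 or Angpt2 was found in 45 and 30 cells. The 19 and 12 cells with at least 3 Apln UMIs were deeper than the 59 and 53 without any, with medians of 20690.0 and 19084.5 against 9673 and 10362 UMIs. In CPM, which takes depth into account, Dll4 was at 91.2 and 74.6 in them against 37.4 and 37.1, and Vwf at 335 and 268 against 153 and 204, while Aplnr was at 104 and 114 against 195 and 179. Mfsd2a stood at 246.4 and 276 CPM in them against 246.2 and 260.0 CPM.

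Genes of the cell cycle were concentrated in a minority of endothelial cells. Mki67 or Top2a, both expressed in dividing cells, was detected in 32 of 99 and 32 of 76 members, and 15 and 14 members had at least 10 UMIs over the 10 mitosis genes. These 29 cells held 84.1% of the mitosis UMIs, whereas 63 and 30 members had 0 or 1. Their median depth was 19619 UMIs against 10564.5 for the remaining members. Transporter genes summed to 6063 and 5796 CPM in these 29 cells and 6596 and 7410 CPM in the remaining members. In the sums, Mki67 measured 63.0 and 92.4 CPM in endothelial cells and 97.6 and 88.7 CPM in the other cells, which include neural progenitors (log2 difference -0.23, adjusted p = 0.266). Without the endothelial sum of WT replicate 6 the Mki67 difference was -0.52 with a call. Of 10 mitosis genes 2 were higher and 3 lower, shares near the 20.8% and 22.3% of all genes, and of 10 DNA replication genes 2 were higher, Mcm3 (1.26) and Mcm6 (0.80), and 1 lower. All 5 mitosis calls were lost in at least 1 alternative. Those of Cdk1 (0.24) and Ccnb2 (0.50) were lost without the cells of highest doublet score, that of Ccnb2 also without WT replicate 6 (0.49), and those of Top2a (-0.69), Ccnb1 (-0.60) and Cenpf (-0.78) with the stricter cell filter. Top2a was also not called without WT replicate 1 (-0.34). At 2000 UMIs, Mki67 was detected in 9.49% of endothelial, 7.48% of other and 12.4% of microglia-gated cells.

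**Figure D4:**
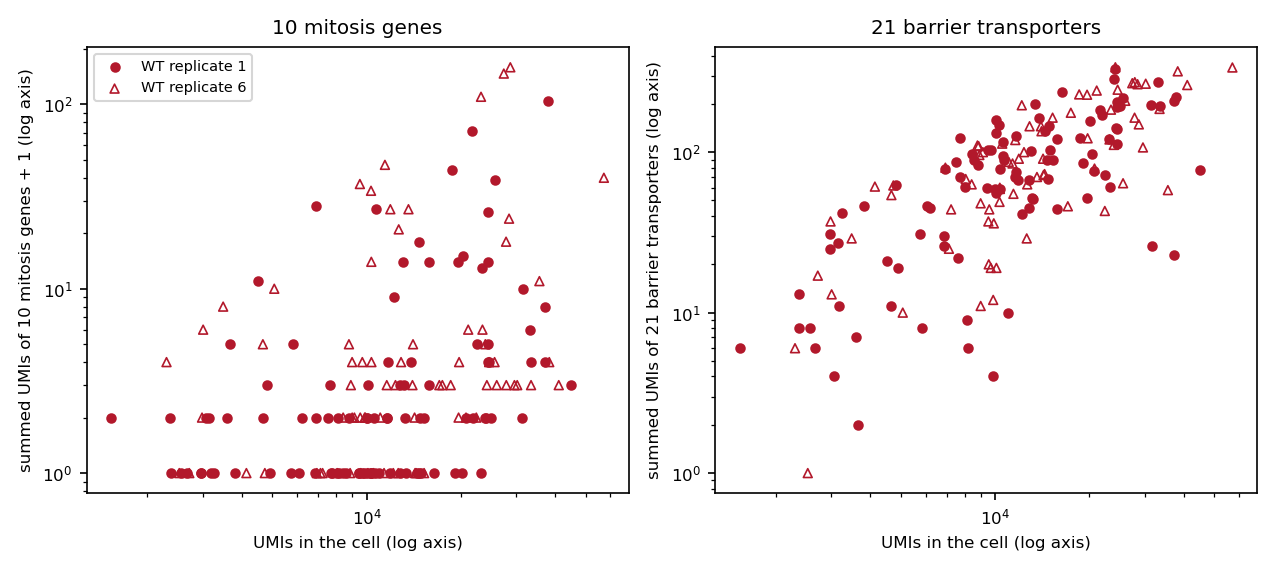
UMIs of the 10 mitosis genes (left, plus 1) and of the 21 barrier transporters (right) in each of the 175 endothelial cells against the total UMIs of the cell, all on log axes. Filled circles are cells of WT replicate 1 and open triangles cells of WT replicate 6. Transporter UMIs grow with depth across the cells of both libraries, while mitosis UMIs are at 0 or 1 in 63 and 30 cells and reach 10 or more in 15 and 14.

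Lymphatic genes gave a mixed picture. The list summed to 146.5 and 276 CPM in endothelial cells against 152 and 148 in the other cells. The largest part in endothelial cells came from Reln, which neurons also express. Reln had 100 and 246 UMIs and was not called (0.41, adjusted p = 0.36). Of these UMIs, 1 cell per library held 52 and 183, and only 16 of the 175 members had any. Lyve1 had no UMI in either endothelial sum and was at least 2.94-fold lower than in the other cells. Prox1 had 10 and 2 UMIs and Pdpn 6 and 2, both lower. These lower calls compare members with cells of all other types, so they do not settle whether any member was lymphatic. Flt4, the VEGF receptor 3 gene that growing blood vessels share with lymphatics, was the 1 gene of the list that was higher, at 58.6 and 58.8 CPM against 0.721 and 0.425 (log2 difference 6.71, SE 0.27, adjusted p = 4.11e-07). Ccl21a, a chemokine gene with near-identical copies whose reads may be shared, had 4 and 9 UMIs in 3 and 2 members and none in the other cells. With these UMIs taken as exact and 3 counts allowed per library in the other cells, it was at least 62.4-fold higher. The counting error of its own few UMIs is not covered by this bound. It had too few counts for a test.

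Genes at the center of the study were lower than in other cells or not called, with 4 of 6 lower and Dot1l and Dnmt1 not called. Dot1l, the targeted gene of the series, had 42 UMIs in each endothelial sum, or 30.8 and 35.3 CPM against 41.1 and 38.9 (log2 difference -0.23, SE 0.13, adjusted p = 0.203). Dnmt1, the DNA methyltransferase gene, measured 46.2 and 72.2 CPM against 60.3 and 64.1 (-0.04, adjusted p = 0.874). Nrxn3, encoding neurexin 3, was lower, at 885 and 817 CPM against 3481 and 3212 (-1.93, SE 0.12, adjusted p = 6.31e-06), and microglia-gated cells held 1074 and 1425 CPM. Nlgn1 (-1.96) and Epha4 (-1.22) were lower too. Nlgn1 measured 218 and 355 CPM in endothelial cells against 409 and 96.3 in microglia-gated cells. Epha4 measured 152 and 82.3 CPM against 89.6 and 87.2 in microglia-gated cells. Nrxn3 in both libraries, Nlgn1 in WT replicate 1 and Epha4 in WT replicate 6 lay below the microglia-gated level, and Nlgn1 in WT replicate 6 and Epha4 in WT replicate 1 above it. The endothelial sums of these genes were concentrated in few cells. The 18 highest of the 175 members held 91.3% of the Nrxn3, 79.4% of the Nlgn1 and 55.2% of the Epha4 UMIs. A UMI was found in 37.1%, 28.0% and 49.7% of members. The origin of this RNA was not tested.

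To ask which genes set the endothelium apart from the other cells of the vessel wall, it was compared with mural cells. These were 98 and 89 cells with at least 4 of 7 mural genes above 0. Among them, 35.7% and 29.2% had the highest doublet scores, and cells left out of the members for Rgs5 could enter. The 20 pan-endothelial genes summed to 1026 and 1215 CPM in mural cells and 518 and 432 CPM in microglia-gated cells. The part of endothelial RNA in the mural levels below was not tested. Of 10768 genes tested, 2350 (21.8%) were called, 1228 higher (11.4%) and 1122 lower (10.4%) in endothelial cells, and DESeq2 called 1505. An unadjusted p under 0.05 was reached by 32.9%, and 4.91% were called and at least 4-fold higher. Of 20 pan-endothelial genes, 19 were higher and Ets1 was not called. Emcn, encoding the surface protein endomucin, differed little, at 231 and 297 CPM against 163 and 174 (log2 difference 0.68, adjusted p = 0.0329), a call lost with DESeq2 and in 3 other alternatives. All 19 transporters tested and all 8 tight junction genes tested were higher. Slc2a1 measured 29.1 and 57.2 CPM in mural cells (4.19, SE 0.32, adjusted p = 2.51e-05). Slc22a8, an organic anion transporter gene, came closest among transporters, with 66.4 and 64.5 CPM in mural cells against 152 and 179.8 (1.38, SE 0.19, adjusted p = 0.000642). Plvap and Vwf had no UMI in mural cells. With their endothelial UMIs taken as exact, they were at least 5.10-fold and 56.8-fold higher in endothelial cells.

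Wnt pathway genes divided between the classes. Of 18, 10 were higher in endothelial cells, 7 were not called and Axin2 was lower, with 106 and 133 CPM in mural cells against 33.7 and 23.5 (log2 difference -1.99, SE 0.25, adjusted p = 0.000449). Lef1 (4.01) and Apcdd1 (3.19) were higher in endothelial cells, while Foxf2 measured 47.3 and 63.3 CPM in mural cells and 70.3 and 68.0 CPM in endothelial cells without a call (0.38, adjusted p = 0.292). Notch genes divided as well, with Dll4 (3.35), Jag2 (4.08), Hey1 (3.93) and Lfng (4.82) higher in endothelial cells and Hey2 (-5.09), Heyl (-7.97), Hes1 (-0.84) and Nrarp (-0.83) higher in mural cells. The calls of Hes1 and Nrarp were lost with DESeq2 and without the endothelial sum of WT replicate 1 (-0.92 and -0.71). That of Hes1 was also lost without WT replicate 6 (-0.76) and with the stricter cell filter (-0.56). The ligand gene Jag1 was not called.

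Basement membrane genes, all higher than in other cells, were shared with mural cells. Of 14 tested, 5 were higher in endothelial cells, 5 lower and 4 not called, with a median of -0.17. Col4a2, among those not called (-0.66, adjusted p = 0.0576), was called lower in 6 alternatives. Col4a1 reached 2387 and 3013 CPM in mural cells (log2 difference -1.11, SE 0.22, adjusted p = 0.00638), and Lamb1 (-1.66), Lamc1 (-0.98), Nid1 (-1.32) and Itga1 (-2.01) were lower with it. Hspg2, the perlecan gene, was higher in endothelial cells, at 136 and 142 CPM against 41.0 and 29.2 (2.004, SE 0.21, adjusted p = 0.000162), as were Sparc (1.40), Fn1 (1.02), Itga6 (1.21) and Nid2 (0.94). Among signals, Pdgfb (5.21) and Edn1 (4.82) separated the classes and the other 4 were not called. Nr2f2 was lower in endothelial than in mural cells (-1.80), where it reached 313 and 392 CPM, and the growth factor gene Pgf was lower as well (-4.72). Ifitm2 (-2.22) and Ifitm3 (-1.92) were lower in endothelial cells, whereas 7 of the 10 genes of their list were higher.

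**Figure D5:**
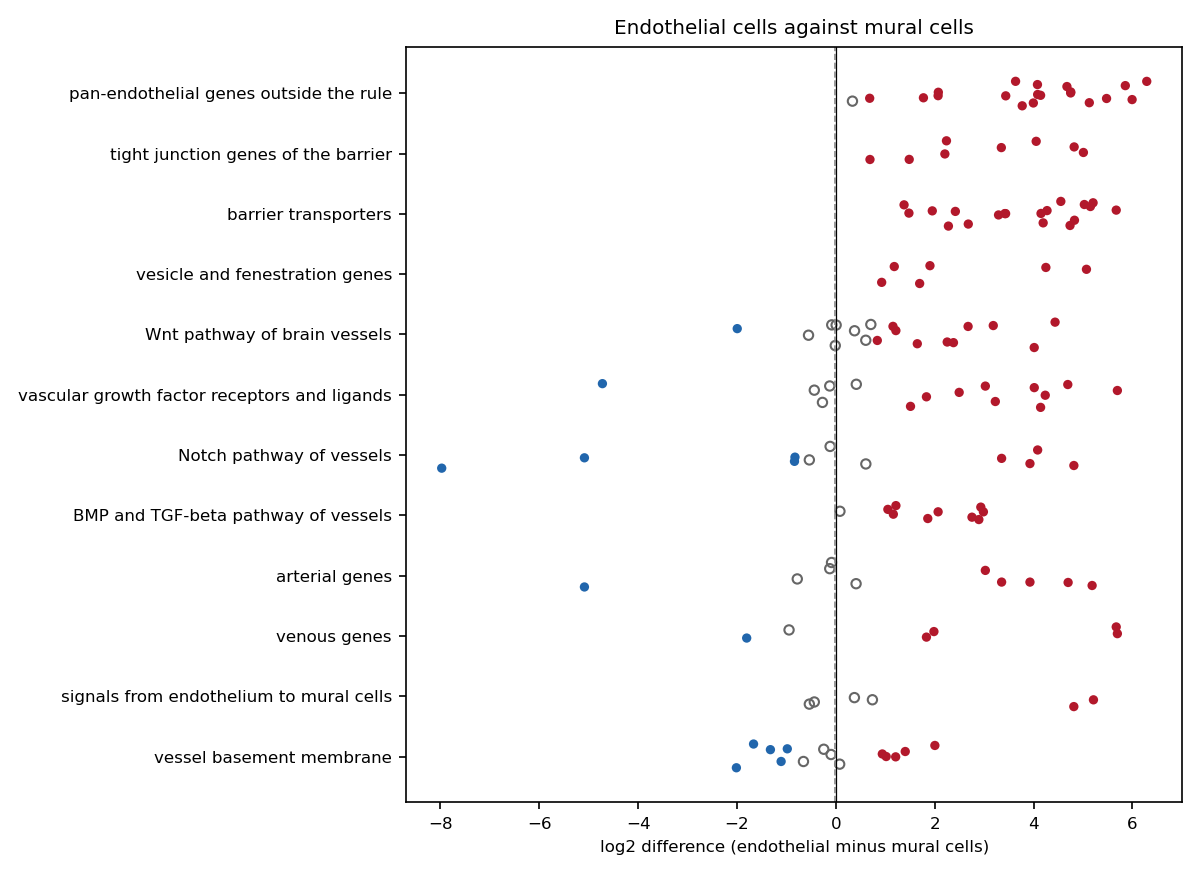
Log2 difference of each tested gene between endothelial and mural cells (x axis, edgeR), grouped by gene list (y axis, points shifted vertically for visibility). Filled red points were called higher in endothelial cells, filled blue points lower and open points were not called at an adjusted p of 0.05, and genes with no UMI in 1 of the classes are not drawn. Transporters and tight junction genes lie to the right, while the 14 basement membrane genes lie on both sides of 0 with 5 higher and 5 lower.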

How the data were processed

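The authors sequenced 2 WT libraries (10x Genomics 3' v3.1 chemistry). Reads were processed with Cell Ranger 7.0.0 on mm10, per the submitters' processing notes, and the authors deposited UMI counts, without normalization, for 32285 genes. The annotation version and whether intronic reads were counted are not given in the sources used here, so no levels of different genes were compared. The labels do not say whether the embryos shared a litter, and p-values measure only the spread between these libraries.

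Cells were filtered, chosen and summed per library as described above. The members and gene lists were chosen with earlier results of these data known. Sums were tested with edgeR 4.0.16 (TMM, filterByExpr, glmQLFTest, two-sided, Benjamini-Hochberg adjustment over all genes tested). Mural cells had at least 4 of Pdgfrb, Rgs5, Cspg4, Kcnj8, Abcc9, Vtn and Notch3 and at most 2 Col1a2 UMIs, and microglia-gated cells at least 4 of 8 microglia markers. Both classes came from the same libraries, so a replicate block pairs them by origin (correlation of deviations from class means 0.093 and 0.180 for the comparisons with other and with mural cells). Named genes were the marked members of each list and, outside all lists, the 10 highest and 6 lowest differences among genes with at least 20 UMIs in both endothelial sums. Further list members and exceptions were named after their values were seen. Scrublet (scanpy 1.11.5) ranked cells, and the 920 and 856 with the highest scores, 0.8% per 1000 called cells, were left out in an alternative only. On simulated data, 100 genes were changed 2-fold and 100 were changed 4-fold in each comparison. Against other cells, 72% of 2-fold and 98% of 4-fold changes were recovered, and against mural cells 50% and 92%. Genes with few UMIs were not among those changed, so these shares do not apply to them. Further alternatives used DESeq2 1.42.0, no TMM, no low-count filter, other rule thresholds, stricter cell filters and single libraries.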

Additional observations from a re-analysis of the deposited data

How the results depend on the processing

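The number of genes called against other cells stayed within 1.5 times of 7827 in all alternatives, and the replicate block (the pairing of sums by library) changed no call among the 249 listed and named genes, of which 23 lost and 3 gained a call in at least 1 alternative. Against mural cells, DESeq2 called 1505 genes (787 higher, 718 lower) against 2350 (1228 and 1122), and the replicate block called 2973. The block added a call for Col4a2 (-0.66), as did 5 other alternatives. Leaving out the highest doublet scores moved the share of endothelial cells from 1.07% to 0.743%. Without 1 library, the log2 difference from other cells ranged from -0.32 to 0.31 for Nrp1, from -0.21 to 0.21 for Angpt2, from -0.18 to 0.13 for Nr2f2, from -0.39 to 0.17 for Dnmt1, from -1.26 to 1.26 for Fos, from -7.34 to 4.64 for Gja5 and from -0.66 to 3.28 for Mgp, and that from mural cells ranged from -0.22 to 0.028 for Lama4. Without the highest doublet scores, values turned to -0.15 for Nrp1, -0.46 for Angpt2 and -0.38 for Nr2f2, and with the stricter cell filter to -0.13 for Nrp1. Angpt2 was at -0.024 without the marker-rich members, at -0.049 with at least 5 rule genes and at -0.0072 without the low-count filter. Nr2f2 was at -0.066 with at least 3 rule genes, at -0.013 without TMM and at -0.046 without the low-count filter, and Dnmt1 was at 0.0017 with at least 5 rule genes. The cause of these changes was not tested. In the endothelial sums the bound of 3 UMIs amounts to 2.20 and 2.52 CPM, so a count of 0 does not exclude levels below these.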
